A study of Homo sapiens with 6 samples.

Results

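The genes examined were 10 markers and regulators of the epithelial-mesenchymal transition, taken from the 30230 genes of the deposited count table by their symbols: the epithelial markers CDH1 and EPCAM, the mesenchymal markers CDH2, VIM and FN1, and the transcription factors ZEB1, ZEB2, SNAI1, SNAI2 and TWIST1. Each symbol matched exactly 1 row, and 9 of the 10 genes had enough counts to be tested, SNAI2 being the exception. The libraries held polyadenylated RNA of A549, an established human lung adenocarcinoma line that serves as a model of non-small cell lung cancer. The cells had been transfected either with a negative control (NC, 3 libraries) or with an siRNA against FSCN1 (siFSCN1, 3 libraries). FSCN1 codes for fascin, which packs actin filaments into bundles. The study's methods describe a scrambled siRNA for NC, whereas the treatment label of the NC samples names a control plasmid. All silenced libraries carried 1 siRNA in 1 cell line, so effects of FSCN1 loss and of that siRNA itself cannot be told apart. The replicates are called biological in the study, but whether they came from separate cultures is not given in the sources used here, so the p-values measure the spread between these libraries, which may be partly technical.

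The epithelial-mesenchymal transition is a programme in which epithelial cells loosen their junctions and take on the shape and motility of mesenchymal cells. Its classical readout is a switch from E-cadherin to N-cadherin with a gain of vimentin and fibronectin, and it is driven by transcription factors of the SNAI, ZEB and TWIST families, which bind E-box sequences and repress epithelial genes. In carcinoma cells it has been studied in connection with invasion, and many lung cancer lines hold markers of both states at once.

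Each library held between 27967301 and 36560919 counts. FSCN1 itself had FPKM values (fragments scaled to transcript length and mapped depth, as deposited) of 44.98, 47.24 and 45.99 in NC and 4.46, 2.82 and 3.19 in siFSCN1, so the labels matched the knockdown. Changes are given below as the log2 fold change of siFSCN1 over NC with its standard error (SE), from edgeR's quasi-likelihood test on the counts scaled by TMM, with p-values adjusted by the Benjamini-Hochberg method over all 17076 genes tested. FPKM is scaled to mapped depth, while TMM adds a factor per library, 0.933 to 0.942 in NC and 1.05 to 1.08 in siFSCN1. Ratios of mean FPKM (siFSCN1 over NC) therefore ran above the edgeR folds. They were 2.86 against 2.55 for CDH1 and 0.796 against 0.709 for VIM. A gene rose or fell where the adjusted p was under 0.05. In this comparison 68.3% of all tested genes passed that threshold, 35.1% higher and 33.2% lower, so passing it was the usual outcome. A change of at least 2-fold was rarer, at 16.5% of tested genes, 11.7% higher and 4.85% lower.

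Of the 9 genes tested, 6 passed, which is 66.7% and close to the share among all genes, so that the count itself is no result about these genes. The same 6 genes were those whose counts, scaled to library size, did not overlap between groups, as was the case for 71.3% of all tested genes. The genes that rose were CDH1, FN1, CDH2, ZEB1 and EPCAM, and VIM fell. CDH1 and FN1 were the 2 genes changed at least 2-fold (22.2% of those tested). ZEB2, SNAI1 and TWIST1 did not pass. The median log2 fold change of the 9 genes was 0.29, against 0.03 over all tested genes. The largest increases were those of an epithelial marker and a mesenchymal marker, and the remaining mesenchymal markers, CDH2 and VIM, moved in opposite directions.

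**Figure D1:**
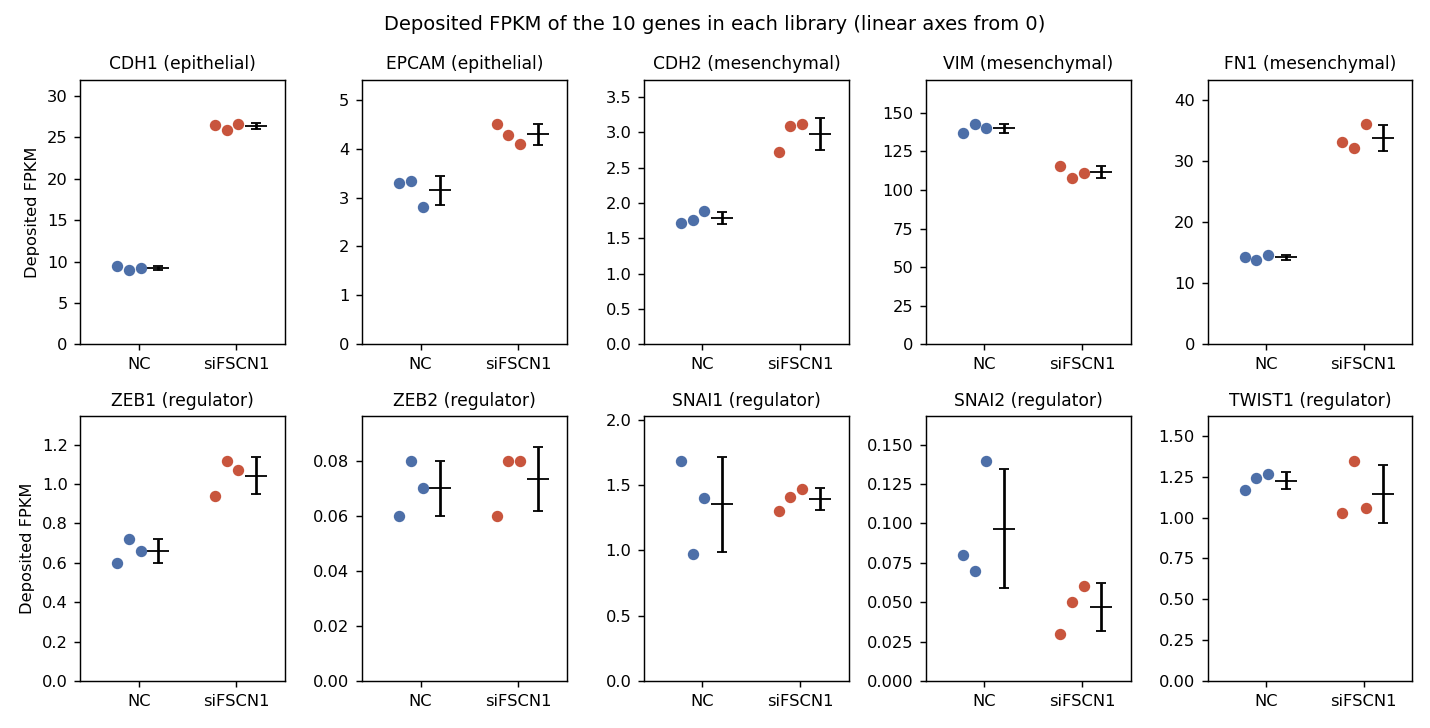
Deposited FPKM of the 10 genes in each library, with NC in blue and siFSCN1 in red, a linear axis from 0 in each panel, and a bar for the group mean with its SD (n = 3). Relative to the level of the gene, CDH1 and FN1 show the widest gaps between groups among the genes that passed, VIM is lower in every siFSCN1 library, and the points of ZEB2, SNAI1 and TWIST1 overlap.

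CDH1 (ENSG00000039068.20, GRCh38 chromosome 16, 68737292 to 68835537, plus strand) encodes E-cadherin, the adhesion receptor of epithelial adherens junctions. Its FPKM, in the order of replicates 1 to 3 as in every such series here, was 9.41, 9.02 and 9.25 for NC and 26.53, 25.94 and 26.65 for siFSCN1. Every silenced library lay far above every control library, and the spread within each group was small, at 9.23 ± 0.196 (SD, n = 3) and 26.4 ± 0.380 (SD, n = 3). The log2 fold change of CDH1 was 1.35 (SE 0.041, adjusted p = 8.0e-15, edgeR), a 2.55-fold increase. Raw counts went from between 1816 and 2399 to between 5895 and 6184, so counting error contributed little. The study selected CDH1 from these libraries as an upregulated gene, so its rise here is not independent evidence.

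EPCAM (ENSG00000119888.11, GRCh38 chromosome 2, 47345158 to 47387601, plus strand) encodes the epithelial cell adhesion molecule, a surface glycoprotein of many carcinomas. It had FPKM values of 3.3, 3.34 and 2.8 in NC and 4.51, 4.29 and 4.09 in siFSCN1. All 3 silenced libraries were above all 3 controls, but by a much smaller margin than for CDH1. Its log2 fold change was 0.29 (SE 0.105, adjusted p = 0.0227, edgeR), with a 95% interval of 0.06 to 0.51. That call was lost with DESeq2 (adjusted p = 0.0660), without NC replicate 3 (0.124), without siFSCN1 replicate 1 (0.0669) and without siFSCN1 replicate 2 (0.0553), while the direction stayed the same. The FPKM ratio of CDH1 to EPCAM averaged 2.95 ± 0.314 for the controls and 6.15 ± 0.329 for the silenced cells (SD, n = 3 each); the difference between the fold changes of these markers was not tested.

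FN1 (ENSG00000115414.21, GRCh38 chromosome 2, 215360440 to 215436073, minus strand) encodes fibronectin, an extracellular matrix glycoprotein that is counted as a mesenchymal marker in this setting. Its FPKM was 14.35, 13.75 and 14.62 in NC and 33.18, 32.12 and 36.17 in siFSCN1. The groups were well apart, with means of 14.2 ± 0.445 (SD, n = 3) and 33.8 ± 2.10 (SD, n = 3). The log2 fold change of FN1 was 1.08 (SE 0.044, adjusted p = 2.8e-13, edgeR), a 2.12-fold increase that was second only to CDH1 among the 10 genes. A cyclic AMP response element, the palindrome TGACGTCA, is a known feature of the FN1 promoter, and it is shown here because, of the 5 genes with a promoter window, only FN1 held it. In the RefSeq promoter window (GRCh38.p14, 250 bases before to 50 bases after the start site) it began 183 bases upstream of the start, at chr2:215436234-215436263 on the minus strand, and the motif is in capitals:
FN1 promoter: cacagtcccccgTGACGTCAcccggagccc
The same 8 letters occurred in 649 of 35116 promoter windows (1.85%), counted on both strands. The match is a description of the sequence and not a measured binding site.

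CDH2 (ENSG00000170558.10, GRCh38 chromosome 18, 27932879 to 28177946, minus strand) encodes N-cadherin, the cadherin that replaces E-cadherin in the classical switch. It had FPKM values of 1.71, 1.76 and 1.88 in NC and 2.72, 3.09 and 3.12 in siFSCN1, with no overlap. Its log2 fold change was 0.57 (SE 0.066, adjusted p = 3.8e-07, edgeR), a 1.49-fold increase. Both cadherins of the switch therefore rose in the silenced cells, E-cadherin by more.

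VIM (ENSG00000026025.16, GRCh38 chromosome 10, 17228241 to 17237593, plus strand) encodes vimentin, the intermediate filament protein of mesenchymal cells. It was by far the most abundant of the 10 transcripts, at 136.85, 142.95 and 140.43 FPKM in NC and 115.65, 107.8 and 110.94 FPKM in siFSCN1. Each silenced library was lower than each control, and the means were 140 ± 3.07 (SD, n = 3) and 111 ± 3.95 (SD, n = 3). The log2 fold change of VIM was -0.50 (SE 0.036, adjusted p = 8.0e-10, edgeR), so that NC was 1.41-fold higher. VIM lay above 98.5% of tested genes in mean FPKM, so this mesenchymal transcript was among the most abundant in both groups.

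**Figure D2:**
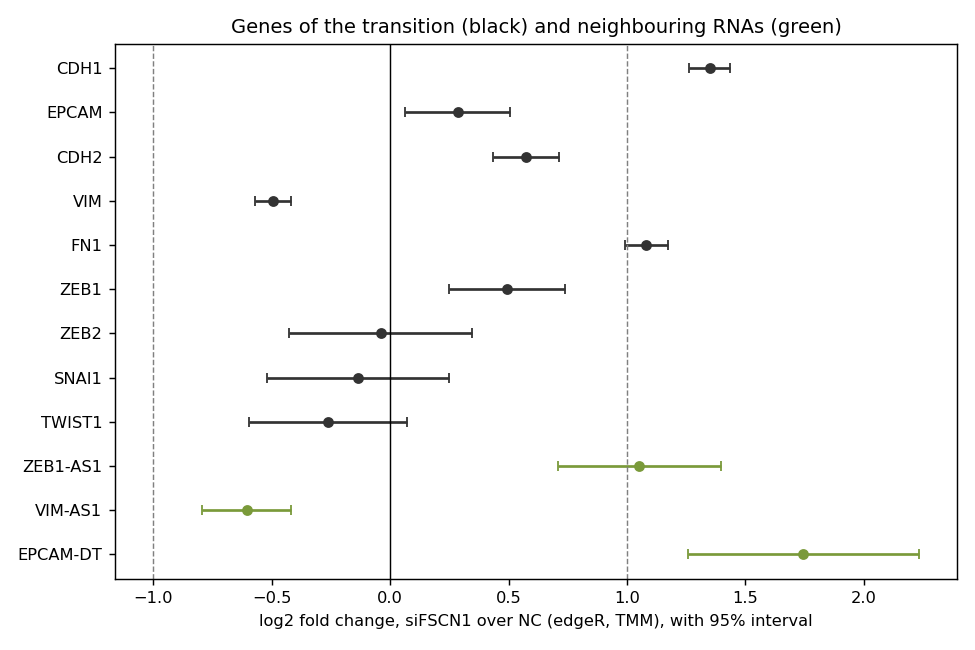
Log2 fold change of siFSCN1 over NC with its 95% interval from edgeR for the 9 tested genes (black) and for non-coding RNAs that start beside ZEB1, VIM and EPCAM (green), with dashed lines at 2-fold. CDH1 lies at 1.35 and FN1 at 1.08, VIM is at -0.50, and the intervals of ZEB2, SNAI1 and TWIST1 include 0.

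Ratios taken within a library do not depend on how libraries were scaled against each other, and they are given as a description with no test. The FPKM ratio of CDH1 to CDH2 was 5.50, 5.13 and 4.92 in NC and 9.75, 8.39 and 8.54 in siFSCN1. The balance of the cadherin pair thus moved towards E-cadherin in every silenced library although both members rose. For CDH1 over VIM the ratios were 0.0688, 0.0631 and 0.0659 in NC and 0.229, 0.241 and 0.240 in siFSCN1. This was the widest shift of the pairs computed, 1.85 on the log2 scale. FN1 over VIM, a ratio of 2 mesenchymal markers, went from 0.102 to 0.304 on average or by 1.58 on the log2 scale. CDH1 over FN1 changed least, from 0.648 ± 0.0134 (SD, n = 3) to 0.781 ± 0.0388 (SD, n = 3), since both genes increased.

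**Figure D3:**
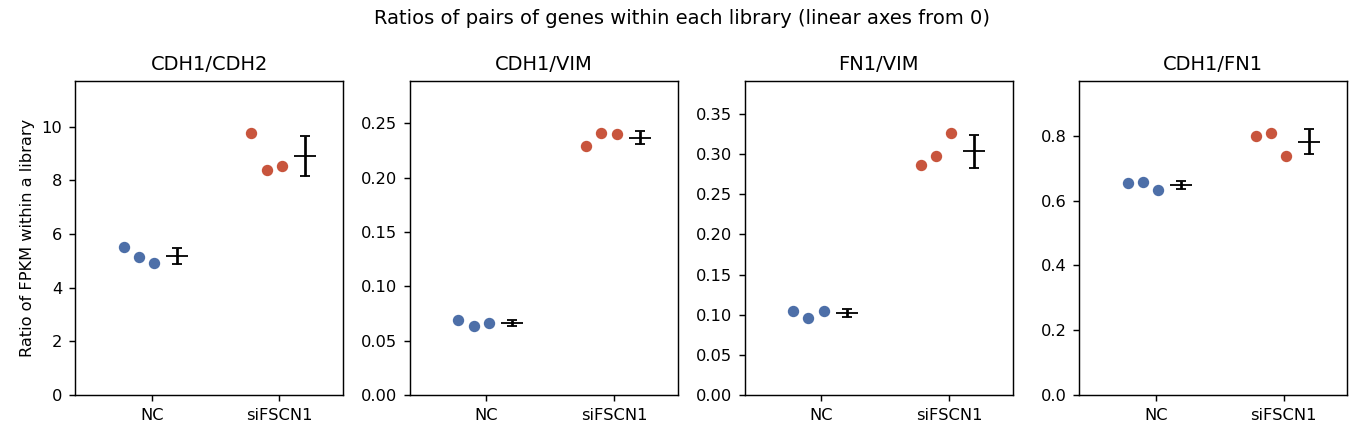
Ratio of deposited FPKM for 4 pairs of genes within each library, with NC in blue, siFSCN1 in red, linear axes from 0 and bars for the mean with its SD (n = 3). The groups are separate in each panel, from 5.18 to 8.90 on average for CDH1 over CDH2 and from 0.0659 to 0.237 for CDH1 over VIM.

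ZEB1 (ENSG00000148516.23, GRCh38 chromosome 10, 31318495 to 31529814, plus strand) encodes a zinc finger and homeodomain repressor that is best known for silencing CDH1 through E-boxes. It had FPKM values of 0.6, 0.72 and 0.66 in NC and 0.94, 1.12 and 1.07 in siFSCN1. The groups did not overlap, although the transcript was low, with between 190 and 242 counts in NC and between 308 and 361 in siFSCN1. Its log2 fold change was 0.49 (SE 0.117, adjusted p = 0.00108, edgeR), a 1.41-fold increase. ZEB1 and CDH1, a repressor and its textbook target, were thus both higher at the RNA level in the same libraries.

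ZEB2 (ENSG00000169554.22, GRCh38 chromosome 2, 144364364 to 144521057, minus strand) is the paralog of ZEB1 and acts on the same kind of site. Its FPKM was 0.06, 0.08 and 0.07 in NC and 0.06, 0.08 and 0.08 in siFSCN1. The values of the groups overlapped completely, and the log2 fold change was -0.04 (SE 0.184, adjusted p = 0.856, edgeR) with a 95% interval of -0.43 to 0.35. A change as large as that of ZEB1 in the same direction lies outside this interval, while the values inside it cannot be told apart here. Each library held between 54 and 81 counts of ZEB2.

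E-boxes of the form CACCTG are the preferred sites of the ZEB and SNAI factors. The motif was searched on both strands, where it reads CAGGTG on the reverse, in RefSeq promoter windows (GRCh38.p14). Windows matched for 5 of the 10 genes, namely CDH2, VIM, FN1, ZEB1 and ZEB2, with 12 windows in all, and there was no entry for CDH1, EPCAM, SNAI1, SNAI2 and TWIST1. Of these 12 windows, 7 were those of ZEB1, and the 2 that held the motif were both among these 7. Among all 35116 windows 20.6% held it. In 1 ZEB1 window it occurred 3 times, beginning 242 and 85 bases before and 34 bases after the start site, on the plus strand of chromosome 10. They are shown because ZEB1 codes for a protein that binds this motif, with the 6 letters in capitals, at chr10:31318966-31318995, chr10:31319119-31319148 and chr10:31319236-31319265:
ZEB1 upstream, far: ccccaccaCACCTGaggaaaacttttccct
ZEB1 upstream, near: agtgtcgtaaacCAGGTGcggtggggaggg
ZEB1 downstream: tggcggatggcccCAGGTGtaagcgcagaa
The looser form CANNTG, of which CACCTG is a special case, was present in 68.7% of all windows and in 6 of the 12. No binding was measured in these libraries, and an absent match says only that the letters are not in the window.

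The ZEB genes are also known for a mutual repression with the miR-200 family, whose 5 microRNAs share 2 seeds. The mature sequences (RefSeq) are given 5′ to 3′ with the seed, bases 2 to 8, in capitals, because the family falls into 2 groups by seed:
hsa-miR-200b-3p: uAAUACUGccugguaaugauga
hsa-miR-200c-3p: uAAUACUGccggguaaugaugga
hsa-miR-429: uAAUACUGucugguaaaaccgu
hsa-miR-200a-3p: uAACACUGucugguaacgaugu
hsa-miR-141-3p: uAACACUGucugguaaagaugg
Matches to these seeds read CAGTATT for the first 3 and CAGTGTT for the other two. The 3′ UTR read for each gene was that of its Ensembl canonical transcript (GENCODE v44). There, ZEB1 held 9 matches and ZEB2 held 9, FN1 held 2 and SNAI2 held 1. The UTRs of the other 6 genes, from 322 bases (VIM) to 2038 bases (CDH1) long, held none. Among 19195 UTRs of at least 50 bases 28.7% held a match of either kind, and 8 UTRs held at least 9. Examples from ZEB1 (GRCh38, plus strand, chr10:31527621-31527646 and chr10:31528034-31528059) and ZEB2 (minus strand, chr2:144389046-144389071 and chr2:144389230-144389255) show both kinds of match in capitals:
ZEB1, first seed: gttttatcttatCAGTATTatcactc
ZEB1, second seed: aatcatcagaatCAGTGTTtgtgatt
ZEB2, first seed: actaccatacatCAGTATTtttatta
ZEB2, second seed: aaaaattttgtaCAGTGTTaaggcct
ZEB1 and ZEB2 thus carried the same number of matches, in UTRs of 2540 and 5370 bases, and the counts were not corrected for length. Only ZEB1 passed the test, and the difference between their fold changes was not tested. MicroRNAs themselves were not measured in these polyadenylated RNA libraries.

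SNAI1 (ENSG00000124216.4, GRCh38 chromosome 20, 49982980 to 49988886, plus strand) encodes SNAIL, an early repressor of CDH1 whose level is controlled largely through protein turnover. It had FPKM values of 1.69, 0.97 and 1.4 in NC and 1.3, 1.41 and 1.47 in siFSCN1. The control libraries spread more widely than the silenced ones and enclosed them. NC replicate 2 held 55 counts, with an exact 95% Poisson interval of 41.4 to 71.6, against 106 counts in NC replicate 1, so that this spread was wider than counting error alone. The log2 fold change was -0.13 (SE 0.183, adjusted p = 0.526, edgeR), with a 95% interval of -0.52 to 0.25.

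TWIST1 (ENSG00000122691.13, GRCh38 chromosome 7, 19020991 to 19117636, minus strand) encodes a basic helix-loop-helix factor of mesoderm that also acts in the transition. Its FPKM was 1.17, 1.24 and 1.27 in NC and 1.03, 1.35 and 1.06 in siFSCN1. A pair of silenced libraries lay below the controls and the remaining one above them. The log2 fold change was -0.26 (SE 0.159, adjusted p = 0.152, edgeR), with a 95% interval of -0.60 to 0.07.

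SNAI2 (ENSG00000019549.13, GRCh38 chromosome 8, 48917598 to 48921740, minus strand) encodes SLUG, the second main SNAI factor. It was close to the detection limit, with 10, 8 and 19 counts in NC and 4, 6 and 8 counts in siFSCN1, or 37 against 18 counts in all. In counts scaled to library size after TMM (CPM) the silenced libraries, at 0.116, 0.182 and 0.235, lay below the controls, at 0.346, 0.304 and 0.555. Counts this low did not pass the filter, and without the filter the log2 fold change was -1.19 (SE 0.537, adjusted p = 0.0639, edgeR), while DESeq2 gave an adjusted p of 0.142. No change in SNAI2 is called.

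The order of the mean FPKM from VIM through FN1, CDH1, EPCAM, CDH2, SNAI1, TWIST1 and ZEB1 was the same in both groups, and only SNAI2 and ZEB2 at the bottom changed places. Several neighbours in that order did not differ beyond their spread. SNAI1 and TWIST1 were at 1.35 ± 0.362 and 1.23 ± 0.0513 FPKM (SD, n = 3) in NC, and SNAI2 and ZEB2 were at 0.0967 ± 0.0379 and 0.07 ± 0.01 FPKM (SD, n = 3). The 5 transcription factors were thus low throughout, while the 3 mesenchymal markers ranged from low (CDH2) to very high (VIM).

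The direction of change went with transcript level in these libraries, with classes set by the mean FPKM over all 6 libraries. In the class of 0.1 to 1 FPKM, which holds 5128 tested genes and ZEB1, the median log2 fold change was 0.37 and 43.4% of genes rose. Among the 2812 genes of 10 to 100 FPKM, which include CDH1 and FN1, the median was -0.26, 20.3% rose and 1.81% rose at least 2-fold. Among the 320 genes above 100 FPKM, where VIM lies, the median was -0.41 and 81.9% fell. FN1 therefore rose against the direction of most genes of its level. CDH1 did so in the class of its mean over all libraries, which its own rise had lifted. Its NC mean of 9.23 FPKM lies in the class of 1 to 10 FPKM. There the median was -0.0048, 35.4% of genes rose, 35.6% fell and 5.71% rose at least 2-fold. The changes of ZEB1 and VIM had the sign of their class medians, and VIM lay close to its class median. When the trend with level was taken out, a step added once the data had been seen, VIM still fell (-0.17), EPCAM no longer passed (0.17, adjusted p = 0.175), and SNAI1 (-0.43, adjusted p = 0.0456) and TWIST1 (-0.56, adjusted p = 0.00487) passed as lower in edgeR. The part of this trend in the changes of single genes was not tested. In bulk RNA, a change in the share of cells of one state cannot be told apart from a change in RNA per cell.

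**Figure D4:**
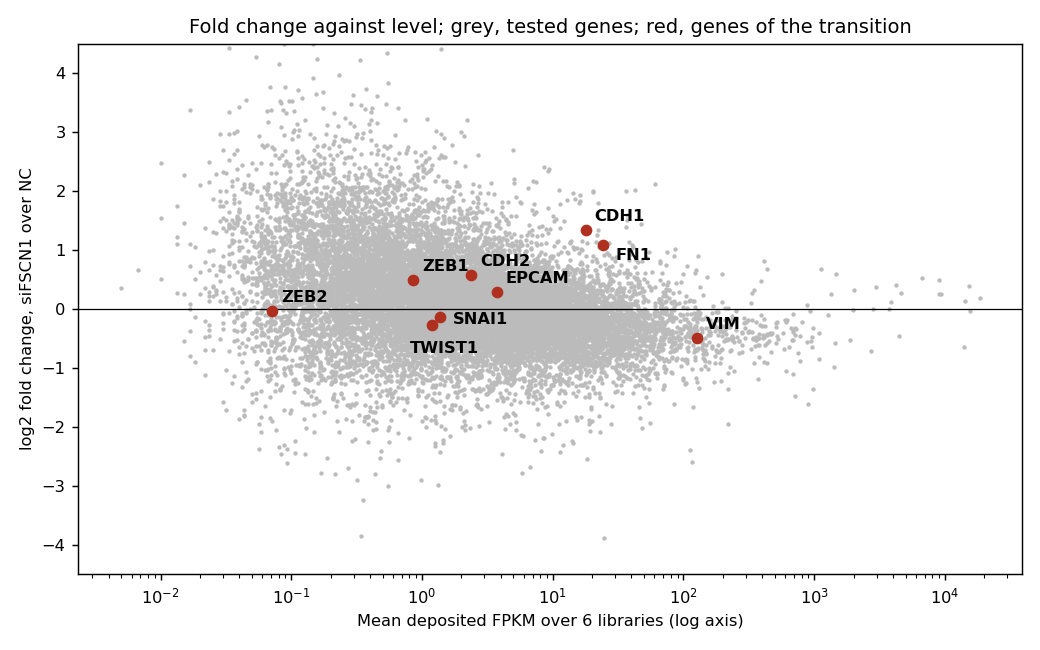
Log2 fold change of siFSCN1 over NC against mean deposited FPKM over the 6 libraries on a log axis, with tested genes in grey and the genes of the transition in red; 9 genes lie outside the vertical axis. CDH1 (1.35) and FN1 (1.08) lie above the bulk of genes of their level, where the median is -0.26, while VIM (-0.50) lies near the median of -0.41 for genes above 100 FPKM.

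Some genes of the transition share their start region with a non-coding RNA. ZEB1-AS1, which starts 1952 bases from ZEB1 on the opposite strand, had FPKM values of 0.32, 0.4 and 0.5 in NC and 1.01, 0.93 and 0.9 in siFSCN1, and rose with a log2 fold change of 1.05 (SE 0.163, adjusted p = 1.6e-05, edgeR). VIM-AS1, which starts 1777 bases from VIM on the opposite strand, fell like VIM, by 0.61 on the log2 scale (adjusted p = 9.3e-06, edgeR), from 8.47, 8.34 and 6.97 FPKM to 6.4, 5.42 and 5.69 FPKM. EPCAM-DT, a divergent transcript that starts 84 bases from EPCAM and was chosen after its values were seen, went from 0.17, 0.2 and 0.15 FPKM to 0.84, 0.56 and 0.57 FPKM, a log2 fold change of 1.74 (SE 0.232, adjusted p = 2.6e-06, edgeR). Each of these RNAs moved in the direction of the gene beside it. Most values of ZEB1-AS1 and all of EPCAM-DT lay between 0.1 and 1 FPKM. In that class 43.4% of tested genes rose and 13.8% fell, so a rise was common at this level. ZEB1 and VIM overlap their antisense genes by 1953 and 1778 bases. The labels describe a library kit that marks strand, but whether the counting used strand is not given in the sources used here, so reads of overlapping antisense partners may not be separable. SNAI3-AS1, beside the untested paralog SNAI3, rose by 0.78 on the log2 scale (adjusted p = 0.00064, edgeR).

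Around these 10 genes, 12 lists of related genes were described by counts and medians. The background over all tested genes was 35.1% higher and 33.2% lower, but it differed with level. At 0.1 to 1 FPKM 43.4% rose and 13.8% fell, while 63.8% fell at 10 to 100 FPKM and 81.9% above 100 FPKM. The lists were not matched for level. Among other epithelial adhesion and membrane genes, 22 of 25 were tested, 8 rose, 9 fell and 5 did not pass, with a median of 0.04. MUC1, a transmembrane mucin, had the largest rise among those of at least 1 FPKM, at 1.42 (adjusted p = 1.2e-07, edgeR), followed by the neuregulin receptor ERBB3 (0.98) and the tight junction protein CLDN1 (0.63). The keratins of simple epithelia went the other way, KRT19 by -1.10, KRT18 by -0.99 and KRT8 by -0.88. The study itself had picked KRT18 as a downregulated gene in this experiment, and it also reported a decrease of KRT18 by RT-qPCR. KRT18 stood at 1946.66, 1675.44 and 1824.1 FPKM in NC and 1156.8, 984.5 and 939.24 FPKM in siFSCN1, with the groups far apart. A fall was the usual outcome at that level. The share of this list that rose was close to the background, and with libraries scaled to their totals 11 were higher and 6 lower.

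Of the regulators of the epithelial state, 11 of 16 were tested, 4 rose, 3 fell and 4 did not pass, with a median of 0.30. EHF, an ETS factor of epithelia, was at 1.48, 1.57 and 1.69 FPKM in NC and 3.37, 3.29 and 3.91 FPKM in siFSCN1, and rose by 0.99 on the log2 scale (adjusted p = 1.6e-09, edgeR). The pioneer factors FOXA1 (0.58) and FOXA2 (0.32) also rose. The Krüppel-like factor KLF5 fell by 0.26 on the log2 scale, and with libraries scaled to their totals 5 genes of the list were higher and 0 lower. GRHL2, ELF5 and MIR200CHG, the host gene of miR-200c and miR-141, had no row here.

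Changes in both directions were also found among the other mesenchymal genes. Of 34 genes, 26 were tested, 12 rose, 7 fell and 7 did not pass, with a median of 0.08, and library totals gave 14 higher and 6 lower. The largest rises were those of MMP14, a membrane-bound matrix metalloproteinase (2.05), NT5E, the ecto-nucleotidase CD73 (1.45), and VCAN, the matrix proteoglycan versican (1.25). NT5E stood at 2.34, 2.2 and 2.21 FPKM in NC and 6.73, 6.68 and 7.24 FPKM in siFSCN1. Among the genes that fell were LOXL2, a collagen and elastin crosslinking enzyme (-0.80), and ITGA5, the alpha subunit of the classical fibronectin receptor (-0.79). LOXL2 went from 23.39, 26.41 and 24.34 FPKM to 15.43, 16.29 and 16.01 FPKM.

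Genes for fibronectin receptors and matrix assembly, the partners of FN1, were the list with the highest share of rises. Of 19 tested genes, 14 rose, 4 fell and 1 did not pass, and the median was 0.55. With library totals 14 were higher and 3 lower. The proteoglycan SDC2 rose by 1.64, the focal adhesion protein TNS1 by 1.41 and the transglutaminase TGM2, which crosslinks fibronectin, by 1.40 on the log2 scale. TGM2 was at 18.87, 18.33 and 18.22 FPKM in NC and 56.04, 55.57 and 52.11 FPKM in siFSCN1, with little spread in either group. SDC1 (-0.82), ITGA5 (-0.79) and ILK (-0.25) fell.

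Cadherins beyond the classical pair were mostly low. Of 20 other cadherin genes 16 had a row and 7 were tested, 3 rose, 0 fell and 4 did not pass. CDH17, the liver-intestine cadherin, was the only one of at least 1 FPKM among those that rose, from 5.21, 5.01 and 4.74 FPKM to 16.44, 15.44 and 16.44 FPKM, a log2 fold change of 1.53 (SE 0.055, adjusted p = 6.0e-14, edgeR). Summed over CDH1, CDH2 and the other cadherins that had an FPKM value, 16 genes in all, the level went from 19.98, 19.56 and 19.94 to 50.55, 49.05 and 50.55. CDH1 made up 46.5% ± 0.507 of this sum in NC and 52.7% ± 0.202 in siFSCN1 (SD, n = 3), CDH2 9.0% ± 0.435 and 5.95% ± 0.498, and CDH17 25.2% ± 1.22 and 32.2% ± 0.603. N-cadherin was a smaller share of the cadherin FPKM after silencing although its own level had increased.

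Of the catenins and adherens junction partners that link cadherins to actin, 15 were tested, 5 rose, 6 fell and 4 did not pass, with a median of -0.04. Under library totals 8 were higher and 5 lower. JUP, plakoglobin, rose by 1.00 on the log2 scale (SE 0.047, adjusted p = 2.3e-12, edgeR), from 24.83, 21.64 and 24.11 FPKM to 55.43, 50.97 and 52.22 FPKM. AFDN, the afadin that binds nectins (0.99), and LIMA1, an actin-binding LIM protein (0.91), rose as well. CTNNAL1, an alpha-catenin-like protein, fell by 1.21, NECTIN2 by 0.46 and NECTIN1 by 0.38 on the log2 scale. CTNNB1, beta-catenin, named here after its values were seen, had a log2 fold change of -0.31 (adjusted p = 3.4e-06, edgeR), so the 2 catenins that bind E-cadherin at the same site went in opposite directions.

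Of 14 tested EPCAM partners and proteases, 6 rose, 6 fell and 2 did not pass, while library totals gave 7 higher and 4 lower. The tetraspanin TSPAN8 rose by 1.82, the gamma-secretase subunit APH1B by 1.21 and the protease BACE1 by 0.72 on the log2 scale. APH1A, the paralog of APH1B, fell by 0.89, from 26.51, 26.83 and 26.69 FPKM to 17.08, 15.59 and 15.76 FPKM. The tetraspanin CD9 (-0.65) and the hyaluronan receptor CD44 (-0.63) also fell.

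Other intermediate filaments and linkers, the family of VIM, had 10 tested genes, of which 2 rose, 5 fell and 3 did not pass, with a median of -0.42. The B-type lamins of the nuclear envelope led the falls, LMNB2 by 1.42 and LMNB1 by 1.19 on the log2 scale, followed by the neurofilament gene NEFL (0.54). SYNM, synemin, which copolymerises with vimentin, rose by 0.72, from 3.43, 3.41 and 3.3 FPKM to 6.01, 6.28 and 6.4 FPKM.

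The other transcription factors of the transition showed 4 rises, 6 falls and 4 that did not pass among 14 tested genes, with a median of -0.18. SOX4 (0.84) and SOX9 (0.81) rose, and so did the E-protein TCF12 (0.32). The ID proteins, which bind basic helix-loop-helix partners and keep them off DNA, fell, ID3 by 1.03, ID2 by 0.48 and ID1 by 0.41 on the log2 scale. ID3 went from 155.5, 145.74 and 151.19 FPKM to 93.15, 78.28 and 78.22 FPKM, and ID1 and ID3 were more abundant than any of the 5 transition factors examined. With library totals, 7 of this list were higher and 3 lower, so its balance depended on the scaling.

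Corepressors that work with these factors showed 2 rises, 8 falls and 7 that did not pass among 17 tested genes. SUZ12, a core subunit of Polycomb repressive complex 2, fell by 1.06, the maintenance methyltransferase DNMT1 by 0.71 and the demethylase KDM1A by 0.60 on the log2 scale, and BMI1 had the value 0.22. Under library totals 7 were higher and 6 lower. Of 16 genes for the turnover of the SNAIL and SLUG proteins, 5 rose, 9 fell and 2 did not pass. FBXL14, a ubiquitin ligase component for SNAIL that went from 1.64 to 0.92 FPKM on average, the kinase GSK3A (-0.62) and the signalosome subunit COPS5 (-0.44) fell. The kinase LATS2 (0.83), the deubiquitinase USP27X (0.52) and the ligase component BTRC (0.51) rose. Library totals gave 6 higher and 6 lower. Protein levels of SNAIL and SLUG were not measured here.

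**Figure D5:**
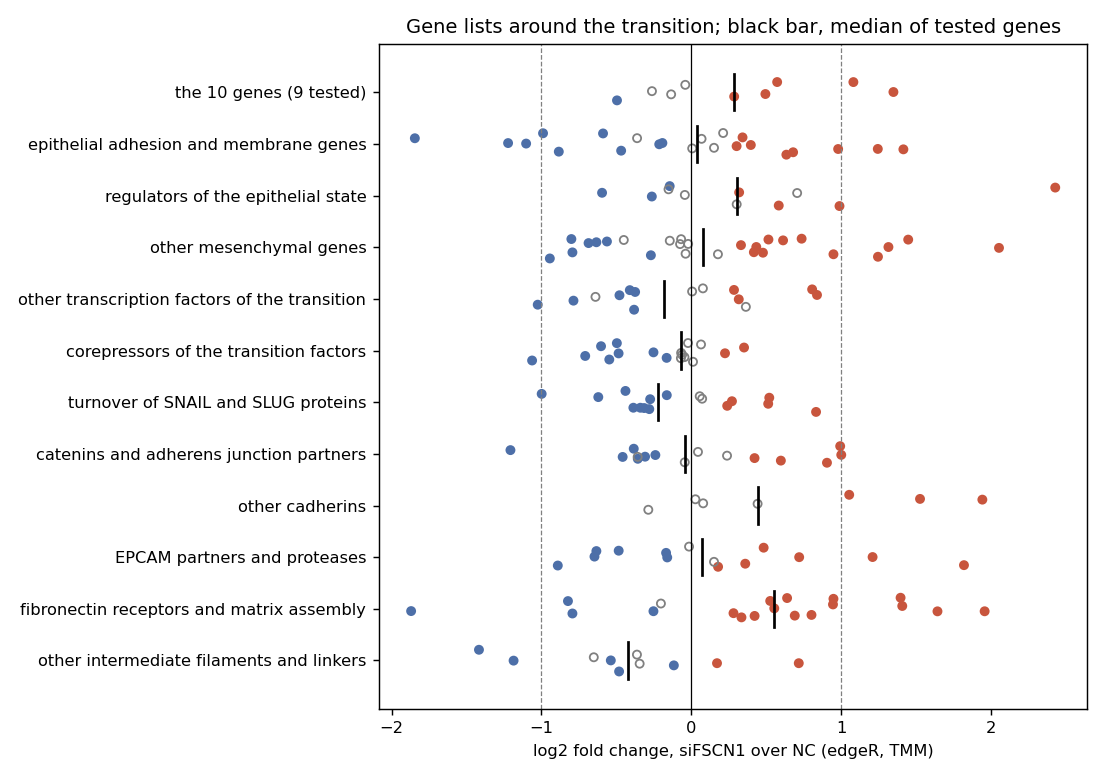
Log2 fold change of siFSCN1 over NC for the 9 tested genes of the transition and for 11 lists of related genes, without the neighbouring non-coding RNAs and the cell type markers, with genes that rose in red, those that fell in blue, those that did not pass as open circles, the list median as a black bar and dashed lines at 2-fold. The fibronectin receptor and matrix assembly list has the highest median of those drawn (0.55) and the intermediate filament list the lowest (-0.42).

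Markers of fibroblasts and endothelium were low in all libraries, while those of blood cells were not all near 0. The summed FPKM of 9 fibroblast markers was 0.63 to 0.69 in NC and 0.45 to 0.77 in siFSCN1, that of the endothelial markers 0.01 to 0.04 and 0.04 to 0.07, and that of the blood cell markers, nearly all from CD14 and CD68, 3.28 to 3.74 and 4.14 to 5.15, with PTPRC, the pan-leukocyte marker, near 0. CD14 rose and CD68 fell, and the part of these markers in the changes above was not tested. The mesenchymal transcripts FN1, VIM and VCAN were thus measured in libraries with the fibroblast collagens COL1A2 and COL3A1 near 0. The lung epithelial line markers, dominated by keratins, summed to 3105 to 3486 FPKM in NC and 1729 to 2086 FPKM in siFSCN1, while the alveolar genes SFTPC and NKX2-1 were at or below 0.1 FPKM in every library.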

How the data were processed

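RNA sequencing counts and FPKM per gene were taken as deposited. According to the study's methods, the authors mapped trimmed reads to GRCh38 using HISAT2 and kept unique alignments; the submitters' processing notes name TopHat2 and bcl2fastq. The deposited counts are raw reads per gene, and the deposited FPKM values are scaled by the authors to gene length and depth, with 2 decimals. For these libraries, the counting program, strand setting and annotation release are not given in the sources used here. Groups and replicate numbers came from sample titles.

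Genes kept by filterByExpr (17076 of 30230) were scaled by TMM and compared between 3 NC and 3 siFSCN1 libraries by the quasi-likelihood test of edgeR 4.0.16 in R 4.3.3 without covariates; p-values were adjusted by Benjamini-Hochberg. The authors used DESeq2, run here as an alternative (1.42.0), beside limma (3.58.1) on log2(FPKM + 0.1) and log2(FPKM + 1) of the deposited FPKM. Standard errors were derived from the fold change and its F statistic. With 3 against 3 libraries an exact permutation test cannot go below p = 0.1. The fits were tested on simulated data.

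The 10 genes and the lists were chosen with earlier results of these data known. Named from each list were up to 3 higher and 3 lower genes with the largest log2 fold change among those with adjusted p under 0.05 and a mean of at least 1 FPKM in the higher group, all neighbouring non-coding RNAs, and defining cell type markers. One gene that this rule selects is not reported here. The motif TGACGTCA and the miR-200 seeds were chosen after the values were seen. Of 30230 gene identifiers, 30147 (99.7%) were found in GENCODE v44. Gene identifiers are printed as in the deposited counts, while gene positions, strands and overlaps are those of GENCODE v44. For ZEB2 the GENCODE v44 entry is ENSG00000169554.23, a different version from that of the counts. The spans may therefore differ from those used for counting. Library depth was 27967301 to 36560919 counts, and Poisson intervals cover counting error only.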

Additional observations from a re-analysis of the deposited data

How the results depend on the processing

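The 9 genes were refitted under 15 alternatives chosen at the start (RLE, upper quartile and total scaling, DESeq2, no filter, a stricter filter, the replicate block, leaving out each library, and limma on 2 FPKM scales) and 1 chosen after seeing the data (trend with abundance removed). Over the 15, 5 to 6 genes passed and CDH1 and FN1 were the 2 changed at least 2-fold each time, with ranges of 1.32 to 1.54 and 1.02 to 1.27. CDH2 ran from 0.51 to 0.76, VIM from -0.53 to -0.31 and ZEB1 from 0.30 to 0.68. EPCAM ran from 0.20 to 0.47 with adjusted p from 0.000623 to 0.124. ZEB2 and SNAI1 changed sign without passing. ZEB2 was at 0.078 with upper quartile scaling, 0.15 with library totals, 0.027 on log2(FPKM + 0.1), 0.0045 on log2(FPKM + 1), and -0.15 to 0.057 leaving out 1 library. SNAI1 was at 0.053 with library totals, 0.069 and 0.035 on the FPKM scales, and -0.31 to 0.056 leaving out 1 library. The median of all genes was 0.03 with TMM, 0.15 with upper quartile scaling and 0.22 with library totals. With the trend removed, 3 of the 9 genes were lower. Over all genes, 1991 were at least 2-fold higher and 829 lower, against 2637 and 510 with library totals, 1587 and 395 on log2(FPKM + 0.1), 285 and 186 on log2(FPKM + 1) and 1280 and 1235 with the trend removed. The count of epithelial regulators that passed went from 7 to 4 on log2(FPKM + 1). That of other cadherins went from 3 to 1 with the stricter filter, that of blood markers from 2 to 1 with the stricter filter or the trend removed, and that of endothelial markers from 0 of 0 tested to 1 with no filter. Fibroblast markers went from 1 to 2 with the trend removed and to between 1 and 3 leaving out 1 library. Of 368 such counts 355 stayed within 1.5 times the main value, and the causes of the changes were not tested. Under the replicate block 6 genes passed, as without it. The replicate numbers gave no sign of pairing, with correlations of same-numbered deviations of -0.035, 0.040 and -0.084. Whether same-numbered libraries were prepared together is not given in the sources used here, and these correlations cannot settle it. SNAI2, at 4 to 19 counts per library, was too shallow to test, and the precision for ZEB2, SNAI1 and TWIST1 is that of 54 to 108 counts per library and of the spread between replicates.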

Other observations

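Annotated genes on the opposite strand overlap 8 of the 10 genes, and 5 of these have such a partner in the count table. Within CDH1, the antisense gene RP11-354M1.2 had 8, 6 and 3 counts in NC and 17, 18 and 13 counts in siFSCN1, a log2 fold change of 1.29 (adjusted p = 0.019, edgeR), close to the 1.35 of CDH1. The pseudogene FTLP14, which lies within CDH1 on the same strand, went the other way, with 53, 36 and 50 counts against 31, 20 and 24 counts and a log2 fold change of -1.07 (adjusted p = 0.0012, edgeR). Within VIM, RP11-124N14.3 on the opposite strand had 892, 884 and 911 counts in NC and 595, 695 and 650 counts in siFSCN1, a log2 fold change of -0.66 (adjusted p = 8.1e-07, edgeR), beside -0.61 for VIM-AS1 and -0.50 for VIM. These genes were chosen after their values were seen, and reads of overlapping genes may not be separable where the counting ignored strand.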
